A study of Homo sapiens with 2 samples.

Results

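The genes examined here were 10 genes of the NRF2 antioxidant pathway, picked by symbol from the 58174 genes of RNA-seq data from PLC-8024 cells, a human HCC cell line. They comprised the transcription factor NRF2 itself (NFE2L2), its inhibitor KEAP1 and 8 target genes (NQO1, HMOX1, GCLC, GCLM, TXNRD1, SRXN1, SLC7A11 and TXN). Each symbol matched 1 row of the deposited data. The study compared control cells (PLC-8024-CTR, which carried the control vector and are called control cells here) with cells overexpressing the secreted TGF-β family protein GDF1 (PLC-8024-GDF1, called GDF1 cells). GDF1 was delivered by lentivirus and stably transduced cells were selected with puromycin, and the sources used here do not say whether the selected cells were a pool or a clone. There was 1 library per condition. No difference below therefore has a replicate check, and all of them describe these 2 libraries.

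NRF2 is a basic leucine zipper transcription factor that controls the cellular response to oxidants and electrophiles. In unstressed cells, KEAP1 holds NRF2 in the cytoplasm and presents it to a CUL3-containing ubiquitin ligase for degradation. When cysteines of KEAP1 are oxidised, NRF2 escapes, pairs with small MAF proteins and binds antioxidant response elements in its target genes. In the liver these targets supply glutathione, thioredoxin reduction and the detoxification of quinones and haem, and the pathway is often activated in HCC by mutation. NRF2 activity is set mainly by protein turnover, which RNA levels do not show.

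The deposited values were TPM, a transcript abundance scaled for gene length and library total, so levels of different genes could be set side by side, while the sequencing depth could not be read and no counting error is given. Changes are given as the log2 change of TPM + 1, GDF1 cells over control cells. "Fell" and "rose" are used for a log2 change beyond 1 in either direction, that is, past 2-fold on this scale, and the pseudocount of 1 makes changes of genes with low TPM smaller. The introduced gene GDF1 had a log2 change of 0.87, and CERS1, whose span covers that of GDF1 on the same strand, went from 13.3 to 9612 TPM. Over all genes the comparison leaned downwards. Of 9632 genes that reached 5 TPM in one library or both, 10.8% fell, 4.89% rose, and the median log2 change was -0.20. Of the 14929 genes that reached 1 TPM, 9.61% fell and 4.82% rose.

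The 10 genes divided into 5 that fell and 5 that stayed within 2-fold, and none rose. TXNRD1, GCLC, GCLM, SRXN1 and SLC7A11 fell, all of them target genes. The regulators NFE2L2 and KEAP1 and the targets NQO1, HMOX1 and TXN stayed within 2-fold. The count of 5 of 10 stands beside 9.61% of all genes that reached 1 TPM. It is no independent excess, because the 10 genes were chosen with earlier results of these data known. TXNRD1 (0.991 TPM in GDF1 cells) reached even 1 TPM only in control cells. At the higher limit of 5 TPM, 4 of 9 genes fell, beside 10.8% of all genes. Of these 9, TXNRD1, GCLC and GCLM reached 5 TPM only in control cells, so they could be included only by being lower in GDF1 cells, and SLC7A11 was under 5 TPM in both libraries. The median log2 change of all 10 genes was -0.70, and that of the 9 genes at the limit of 5 TPM was -0.34 (-0.13 with rescaled TPM).

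Short stretches of promoter sequence show the element that NRF2 recognises in 1 regulator and in 2 of the genes that fell. The core of the antioxidant response element was searched as TGACNNNGC on both strands of RefSeq promoter windows (GRCh38.p14) that run from 250 bases before a gene's start to 50 bases after it. The build differs from the hg19 build of the expression data, so these positions are not comparable with the gene positions given further on. Windows were available for 8 of the 10 genes, HMOX1 and SLC7A11 not being among them. The core was found in 4 of the 11 windows of these 8 genes, while 13.3% of all 35116 windows held it. These 4 windows belong to 3 of the 8 genes, GCLM, TXNRD1 and KEAP1, while 20.4% of the 6891 genes that reached 5 TPM and have a window held it in any of their windows. GCLC, NQO1, SRXN1, TXN and NFE2L2 had none in these windows, which says only that these letters are absent there. Matches upstream of the start are shown in capitals, and one written with GC first and TCA last lies on the opposite strand.
GCLM (chr1:93909431-93909490, minus strand): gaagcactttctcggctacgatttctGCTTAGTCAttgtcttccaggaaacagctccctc
TXNRD1, first start (chr12:104215654-104215714, plus strand): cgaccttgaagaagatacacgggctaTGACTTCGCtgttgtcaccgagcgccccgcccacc
TXNRD1, second start (chr12:104286904-104286964, plus strand): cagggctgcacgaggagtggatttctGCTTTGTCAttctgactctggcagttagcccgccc
KEAP1 (chr19:10502772-10502851, minus strand): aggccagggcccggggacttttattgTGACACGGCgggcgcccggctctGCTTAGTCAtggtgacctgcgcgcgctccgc

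GCLM, which fell, and KEAP1, which stayed within 2-fold, carried the same 9 letters, GCTTAGTCA, 34 and 31 bases before the start. A further match in TXNRD1, 8 bases before its first start, runs across the start and is not shown. None of the 11 windows of these genes held the AP-1 site TGANTCA, which can overlap the core and was present in 7.71% of all windows. A match is a description of the letters and no evidence of binding.

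By level, the 10 genes spanned from SLC7A11 to TXN, and their order differed between the libraries. In control cells the order from the highest was TXN, HMOX1, NQO1, KEAP1, SRXN1, NFE2L2, TXNRD1, GCLC, GCLM and SLC7A11. In GDF1 cells TXNRD1 moved from the seventh place to the last, SRXN1 came after NFE2L2, and NQO1 and HMOX1, close to each other there at 77.2 and 75.8 TPM, changed places. With 1 library per condition, no spread is available to say which neighbours in this order differ.

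The regulators were examined first. NFE2L2 (ENSG00000116044, minus strand of chromosome 2 of GRCh37, 178083395 to 178257484) encodes NRF2. It had 18.5 TPM in control cells and 19.4 TPM in GDF1 cells, a log2 change of 0.06. KEAP1 (ENSG00000079999, minus strand of chromosome 19, 10596801 to 10614234), the substrate adaptor that marks NRF2 for degradation, was listed at 36.2 and 40.2 TPM, a log2 change of 0.15. The transcript of the factor and that of its inhibitor thus stood in nearly the same proportion in both libraries, with an NFE2L2 to KEAP1 ratio of 0.511 in control cells and 0.482 in GDF1 cells. NFE2L2 shares exon sequence with genes annotated on the opposite strand, HNRNPA3 (55.5 and 32.9 TPM), AGPS (7.38 and 4.39 TPM) and AC079305.1 (1.89 and 1.69 TPM), and its span holds the antisense AC019080.4 (0.168 and 1.11 TPM) outside its exons. The strand setting of the counting was not given in the sources used here, so reads of NFE2L2 and these genes may not be separable. With the whole TPM of the 3 genes that share exon sequence added to that of NFE2L2, the log2 change of the sum was -0.51, an alternative chosen after the values were seen. More of this sum came from HNRNPA3 (log2 change -0.74) than from NFE2L2, so it does not give the change of NFE2L2 itself.

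Glutathione is made in a first, rate-limiting step by glutamate-cysteine ligase, which consists of a catalytic subunit (GCLC) and a modifier subunit (GCLM), from cystine that SLC7A11 brings into the cell. All 3 genes fell. GCLC (ENSG00000001084, minus strand of chromosome 6, 53362139 to 53481768) had 12.8 TPM in control cells and 3.77 TPM in GDF1 cells, a log2 change of -1.53. On the opposite strand, outside its exons, the span of GCLC holds LINC01564 (2.40 and 2.04 TPM). GCLM (ENSG00000023909, minus strand of chromosome 1, 94350755 to 94375012) was listed at 8.33 and 2.85 TPM, a log2 change of -1.28. The transcripts of both subunits were lower by similar factors, 3.39 for GCLC and 2.92 for GCLM. The GCLC to GCLM ratio was 1.53 in control cells and 1.32 in GDF1 cells. GCLM is the gene whose promoter match is shown above, while GCLC had none in its window, which does not cover sequence further away. Any relation between these matches and the changes was not tested. SLC7A11 (ENSG00000151012, minus strand of chromosome 4, 139085251 to 139163503), the light chain of the cystine/glutamate antiporter xCT, had the lowest control level of the 10 genes, 3.33 TPM, and 1.06 TPM in GDF1 cells. Its log2 change was -1.07, and at TPM values this low the pseudocount mattered, since the plain TPM ratio gave -1.65. SLC3A2, the heavy chain that carries xCT to the membrane, was listed at 232.7 and 181.5 TPM, a log2 change of -0.36.

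The thioredoxin branch contained the gene with the lowest log2 change of the 10, TXNRD1 (ENSG00000198431, plus strand of chromosome 12, 104609557 to 104744085), the cytosolic selenoenzyme that reduces thioredoxin with NADPH. TXNRD1 had 13.1 TPM in control cells and 0.991 TPM in GDF1 cells, 13.3-fold lower, with a log2 change of -2.83 (-3.73 as a plain TPM ratio). Only 0.54% of the 9632 genes had a lower log2 change. SRXN1 (ENSG00000271303, minus strand of chromosome 20, 627259 to 633844), which encodes sulfiredoxin and restores overoxidised peroxiredoxins, was listed at 19.6 and 8.38 TPM, a log2 change of -1.13. TXN (ENSG00000136810, minus strand of chromosome 9, 113006090 to 113018787), the thioredoxin that TXNRD1 reduces, was the most abundant of the 10 genes, at 460.6 and 363.6 TPM and a log2 change of -0.34. There were 35.1 TPM of TXN for each TPM of TXNRD1 in control cells and 366.7 in GDF1 cells. The second ratio rests on the 0.991 TPM of TXNRD1 in 1 library and mostly restates the fall of TXNRD1. Of the other thioredoxin reductases, TXNRD3 fell from 9.77 to 2.93 TPM (log2 change -1.46), while the mitochondrial TXNRD2 was listed at 34.0 and 39.5 TPM (log2 change 0.21). Within the span of TXNRD1 but outside its exons, the same strand carries the ribosomal protein pseudogene RPL18AP3 (82.4 and 68.3 TPM) and EID3 (1.16 and 0.369 TPM).

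NQO1 and HMOX1 are the targets most often used to read out NRF2 activity, and neither of them fell. NQO1 (ENSG00000181019, minus strand of chromosome 16, 69740899 to 69760571), the quinone reductase, had 56.7 TPM in control cells and 77.2 TPM in GDF1 cells, a log2 change of 0.44, the highest of the 10. HMOX1 (ENSG00000100292, plus strand of chromosome 22, 35776354 to 35790207), the inducible haem oxygenase, was listed at 88.5 and 75.8 TPM, a log2 change of -0.22, close to the median of all genes. The NQO1 to TXNRD1 ratio went from 4.31 in control cells to 77.8 in GDF1 cells, where it rests on 0.991 TPM of TXNRD1. Of the 8 targets, the 3 within 2-fold were those listed above 50 TPM in both libraries, and the 5 that fell were all under 20 TPM in control cells. Together the 5 went from 57.1 to 17.1 TPM. Added up, the 10 genes amounted to 717.6 and 593.2 TPM, of which TXN alone made up 64.2% and 61.3%.

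In these libraries the log2 change varied with the GC content of transcripts. GC content and level were therefore set beside the 10 genes. Among 8454 protein-coding genes split into 5 groups by GC content, taken from each gene's longest transcript, 16.7% fell at the lowest GC content (up to 42.1%) and 5.32% at the highest (from 59.7%). GCLM (37.3% GC) and SLC7A11 (35.4% GC), which fell, and TXN (36.8% GC) and NFE2L2 (40.5% GC), which did not, lay in the lowest group. The median log2 change of that group was -0.52. TXNRD1 (44.6% GC), GCLC (44.2% GC) and NQO1 (44.2% GC) were nearly equal in GC content and lay in the second group, where the median was -0.40 and 15.2% fell. Their log2 changes were -2.83, -1.53 and 0.44. These 3 genes also lay in the same of 3 classes of transcript length (longest transcripts of 3974, 3785 and 2527 bases), and 17.4% of the 551 protein-coding genes in that GC and length class fell. The genes were also grouped by their mean TPM over both libraries. Of the 9632 genes above, 18.5% fell in the fifth with the lowest mean, which held GCLM and TXNRD1, and 5.24% in the fifth with the highest, which held NQO1, HMOX1 and TXN. The part of GC content and level in the changes of the 10 genes was not tested.

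The call past 2-fold was lost with rescaled TPM for 2 of the 5 genes and with the GC trend removed for 3 of them. With TPM of GDF1 cells rescaled by 1.15 so that the median plain log2 ratio was 0, TXNRD1 (-2.72), GCLC (-1.36) and GCLM (-1.12) remained past 2-fold, and SRXN1 (-0.95) and SLC7A11 (-0.96) did not. With the GC trend removed, TXNRD1 (-2.48) and GCLC (-1.17) remained, while GCLM was at -0.78, SRXN1 at -0.94 and SLC7A11 at -0.56. All 5 genes stayed lower in GDF1 cells under each of the 4 alternatives tried for single genes. TXN turned to 0.16 with the GC trend removed, and HMOX1 was at -0.02 with rescaled TPM. NFE2L2, KEAP1 and NQO1 stayed above 0 in each of these 4, from 0.06 to 0.51, 0.14 to 0.35 and 0.44 to 0.80. Rescaling also changed the split over all genes, in which 31.2% of the genes past 2-fold rose as deposited and 49.0% after rescaling.

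The genes around NRF2 were then examined in lists of other pathway members, each counted over its genes that reached 5 TPM. Each count is to be read against the 10.8% of all genes that fell and the 4.89% that rose, and each median against -0.20. Of 10 genes for NRF2 turnover, 1 fell and none rose, with a median log2 change of -0.33, a count near the 10.8% over all genes. SYVN1, an ER ubiquitin ligase (also called HRD1) that can degrade NRF2, fell from 55.9 to 10.7 TPM (log2 change -2.28). SQSTM1, the autophagy receptor p62 that binds KEAP1 and is itself an NRF2 target, was listed at 511.4 and 1021 TPM, a log2 change of 0.996 that lay just under the limit. DPP3, a peptidase that competes with NRF2 for KEAP1, was listed at 107.5 and 60.1 TPM (log2 change -0.83). CUL3, the scaffold of the KEAP1 ligase, was listed at 9.08 and 17.2 TPM (log2 change 0.85), and was named after its values were seen. SQSTM1 (1.20) and CUL3 (1.05) passed 2-fold with rescaled TPM and also with the GC trend removed (1.08 and 1.35).

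None of the 6 dimerisation partners and competitors of NRF2 passed 2-fold in either direction, and their median log2 change was -0.32. MAFK, a small MAF protein that NRF2 needs for DNA binding, was listed at 158.2 and 94.4 TPM (log2 change -0.74). The NRF2-related factor NFE2L1 was listed at 49.0 and 56.3 TPM (log2 change 0.20). BACH1, the repressor that competes for the same element and controls HMOX1, was listed at 7.03 and 5.11 TPM (log2 change -0.39), and was named after its values were seen.

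Of 23 other NRF2 targets, none fell, 2 rose and 21 stayed within 2-fold, with a median log2 change of 0.06. Among the 21 are 2 that reached 5 TPM only in GDF1 cells, so they could be included only by being higher there. Of the 8 targets described above, 5 fell and 3 stayed within 2-fold. That count is not at the same limit, since SLC7A11, 1 of the 5, was under 5 TPM in both libraries. The difference between these 2 sets of targets was not tested. GPX2, a glutathione peroxidase of epithelia, rose from 138.3 to 405.5 TPM (log2 change 1.54). AKR1C1, an aldo-keto reductase, rose from 125.6 to 340.3 TPM (log2 change 1.43), and reads of AKR1C1 can be shared with its close paralogs AKR1C2 and AKR1C3. The ferritin chains FTL (21437 and 25864 TPM, log2 change 0.27) and FTH1 (2553 and 2666 TPM, log2 change 0.06) were the most abundant of this list.

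In the glutathione genes beyond the ligase, 2 of 16 fell and none rose, with a median log2 change of -0.29, again near the 10.8% over all genes. CTH, which makes cysteine from cystathionine, fell from 42.4 to 13.1 TPM (log2 change -1.62). GLRX, the cytosolic glutaredoxin, fell from 109.5 to 44.7 TPM (log2 change -1.27), and lay at -0.94 with the GC trend removed. GPX4, the peroxidase that protects membrane lipids, was listed at 1609.8 and 2195 TPM (log2 change 0.45), and GPX1 at 274.98 and 543.3 TPM (log2 change 0.98). With rescaled TPM, GPX1 (1.19) and GPX3 (1.17) passed 2-fold upwards.

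Of 14 genes of the thioredoxin, peroxiredoxin and methionine sulfoxide reductase system, 3 fell and none rose, with a median of -0.11, beside 10.8% and 4.89% of all genes. Besides TXNRD3, these were the cytosolic peroxiredoxin PRDX2 (413.9 to 147.3 TPM, log2 change -1.48) and the mitochondrial PRDX3 (135.4 to 49.4 TPM, log2 change -1.44). The more abundant PRDX1 (1081 and 1015 TPM, log2 change -0.09) and PRDX5 (1002 and 1272 TPM, log2 change 0.34) stayed within 2-fold. MSRB2, a mitochondrial methionine sulfoxide reductase named after its values were seen, was listed at 18.1 and 36.7 TPM (log2 change 0.98) and passed 2-fold upwards as a plain TPM ratio (1.02) and with rescaled TPM (1.18). TXNRD3 reached 5 TPM only in control cells, so it was counted only by being lower in GDF1 cells.

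Of 7 genes for superoxide dismutases, catalase and haem breakdown, 2 fell and none rose, with a median of -0.39, beside 10.8% of all genes that fell. CAT, which breaks down hydrogen peroxide, fell from 36.3 to 11.5 TPM (log2 change -1.57). FECH, which inserts iron into haem and so makes rather than breaks it, fell from 10.9 to 2.99 TPM (log2 change -1.57), and like TXNRD3 it reached 5 TPM only in control cells. SOD1 was listed at 615.9 and 470.7 TPM (log2 change -0.39) and SOD2 at 435.5 and 392.7 TPM (log2 change -0.15).

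SLC7A11 also responds to ATF4, the transcription factor of amino acid and ER stress. Of 9 genes in the list of ATF4 and its targets, 2 fell and none rose, with a median of -0.47, and 8 of the 9 had a log2 change below 0, as had 63.4% of all genes that reached 5 TPM. This list is not separate from those above, since SLC3A2 and CHAC1 were also counted among the glutathione genes and SESN2 in the thioredoxin and peroxiredoxin system. PSAT1, an enzyme of serine synthesis, fell from 114.4 to 53.1 TPM (log2 change -1.09), and TRIB3, a pseudokinase induced by stress, fell from 121.2 to 57.6 TPM (log2 change -1.06). With rescaled TPM neither passed 2-fold (-0.89 and -0.86). ATF4 itself was listed at 821.9 and 604.9 TPM (log2 change -0.44) and DDIT4 at 845.7 and 453.2 TPM (log2 change -0.90). Whether ATF4 had a part in the change of SLC7A11 was not tested.

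Markers of the labelled tissue were present. Of 9 hepatocyte and HCC markers, 9 reached 1 TPM in control cells and 8 in GDF1 cells, with summed levels of 10396 and 7613 TPM. ALB (14.98 and 6.07 TPM), AFP (31.4 and 9.75 TPM), TTR (7.17 and 0.340 TPM), APOA1 (602.9 and 157.98 TPM) and HNF4A (11.4 and 5.15 TPM) fell, beside 10.8% of all genes that reached 5 TPM. TTR reached 5 TPM only in control cells, so at that limit it could be included only by being lower in GDF1 cells. SERPINA1 (5308 and 2915 TPM), FGB (1991 and 1517 TPM), KRT8 and KRT18 stayed within 2-fold, with log2 changes of -0.86, -0.39, 0.32 and 0.28. The paper counts AFP among liver progenitor markers and reports, from repeated qPCR and from protein assays, that GDF1 induced these markers. AFP was lower in the GDF1 library, which is a different measure without a replicate. ALB and TTR, which the paper counts among hepatic markers and reports as inhibited by GDF1, were also lower in the GDF1 library. PTPRC, COL1A2, DCN, VWF and KDR, which mark blood cells, fibroblasts and endothelium, were listed at 0.0001 TPM in both libraries. Summed levels were 331.6 and 227.3 TPM for 5 blood cell markers, 3.80 and 2.61 TPM for 6 fibroblast markers and 23.5 and 22.4 TPM for 5 endothelial markers, of which 2, 1 and 1 reached 1 TPM. LYZ (298.0 and 213.5 TPM), CD68 (33.1 and 13.2 TPM) and PECAM1 (23.2 and 22.2 TPM) were above 10 TPM in both. Whether the fall among hepatocyte and HCC markers had a part in that of the antioxidant genes was not tested.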

How the data were processed

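Poly(A) RNA libraries of control and GDF1 cells, 1 of each, were sequenced by the authors on an Illumina HiSeq platform. The authors checked reads with FastQC 0.11.2, filtered them with Trimmomatic 0.36, aligned them to hg19 with HISAT2 2.1.0, used bedtools 2.26.0 for coverage statistics and quantified genes with StringTie 1.3.3b. The deposited values were TPM per gene, with 0.0001 as the usual lowest value and a header that calls them mean TPM. The methods name a RefSeq annotation while the identifiers are Ensembl. TPM keeps no depth, and no count model or p-value was used.

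Both TPM values of each gene were joined on the identifier, and log2((TPM + 1)/(TPM + 1)) was computed. Genes were called past 2-fold beyond a log2 change of 1, among those that reached 5 TPM in one library or both for lists. The TPM minimum was 1 or 10, the pseudocount 0.1 or none (values under 0.0001 set to 0.0001), TPM was rescaled, or a lowess trend on GC content (span 0.3) was subtracted as alternatives. Positions, overlaps and GC content came from GENCODE v44 on GRCh37, which held 55726 of the 58174 identifiers, and promoter windows from RefSeq on GRCh38.p14.

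All 10 genes are named, and of each other list the genes past 2-fold (up to 4 in each direction) and the 2 most abundant in control cells. Genes that overlap one of the 10 genes and reach 1 TPM, GDF1 and CERS1 are named too. Overlaps of the genes in the other lists were not searched. TXNRD2, SLC3A2, CUL3, BACH1, GPX3 and MSRB2 fall outside this rule and were chosen after their values were seen. The 10 genes and the lists were chosen with earlier results of these data known, and the grouping by mean TPM after the values were seen. Python 3.11.15, numpy 2.4.6, pandas 2.3.3, statsmodels 0.14.6 and matplotlib 3.10.9 were used. The calculation was tested on simulated data over 9030 genes. There, 200 of 200 genes planted with a 4-fold change were found and 0 of 8830 unchanged genes were called. The planted change lay past the 2-fold limit, and the spread between replicate libraries is not known for these data. The simulation therefore checks the arithmetic only and gives no rate of false or missed calls for the real libraries.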

Additional observations from a re-analysis of the deposited data

How the results depend on the processing

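No paired analysis was possible because there was 1 library of each kind, and no library could be left out. A count was taken as moved beyond 1.5 times, and a median log2 change beyond a difference of 0.585. Of the 9 pathway genes that reached 5 TPM, the number past 2-fold went from 4 to 2 with the GC trend removed. Over all 10 genes it went from 5 to 3 with rescaled TPM and to 2 with the GC trend removed. The cause was not tested. For NRF2 turnover it went from 1 to 3 with rescaled TPM and to 3 with the GC trend removed. For the glutathione genes it went from 2 to 4 with rescaled TPM (GPX1 and GPX3 added), and for ATF4 and its targets from 2 to 0 with rescaled TPM and to 1 with the GC trend removed. Over all genes, 471 rose and 1041 fell. With at least 1 TPM, and likewise with no filter, 720 rose, and with the GC trend removed 648 fell. The other 117 list and whole-table values stayed within these limits. For medians the limit is wide and lets a sign change. That of the thioredoxin and peroxiredoxin system went from -0.11 to 0.10 with rescaled TPM. Adding genes that share exons on the same strand, as planned, gave no value, since no gene with at least 1 TPM does so with any of the 10. Adding those on the opposite strand to NFE2L2 (0.06) gave a sum at -0.51, to which HNRNPA3 contributed more TPM than NFE2L2. Low TPM limits SLC7A11, GCLM and TXNRD1 most.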

Other observations

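Across all genes that reached 5 TPM and have a RefSeq promoter window, 1403 had the core of the antioxidant response element in a window and 5488 did not. Their median log2 changes were -0.21 and -0.23. Of the genes with the core 10.8% fell and 3.92% rose, and of those without it 11.4% fell and 4.10% rose. Among the other lists, the core was found for 1 of 11 genes of NRF2 turnover with a window, 1 of 6 dimerisation partners and competitors, 6 of 20 further NRF2 targets, 3 of 13 glutathione genes, 2 of 15 genes of the thioredoxin and peroxiredoxin system, 2 of 7 genes for superoxide dismutases, catalase and haem breakdown, and 3 of 10 genes in the list of ATF4 and its targets.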
